A study of Mus musculus with 12 samples.

Results

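Lpl, Hdac4, Tnfaip3, Cdc42, Bace1, Grn and Narf are 7 of the 21705 genes measured in the liver mRNA sequencing of this study. They were chosen because each has been reported as a target of the microRNA miR-29 and none is a gene of the extracellular matrix or of DNA methylation. Their rows were taken by gene symbol, and each symbol matched 1 row. The 12 livers came from wild-type female C57BL/6J mice of 10 to 12 weeks. The 6 control mice received saline. The 6 LNA29 mice received a pair of locked nucleic acid oligonucleotides through the tail vein, LNA29a against miR-29a and LNA29bc against miR-29b and miR-29c, at 20 mg/kg each. Locked nucleic acids are modified antisense oligonucleotides that pair with a small RNA and block it. All livers were taken on day 7 after an overnight fast of 18 h, so that both groups were in the fasted state. The RNA came from whole liver, in which hepatocytes and the other liver cells are mixed, and a lower share of cells of one type cannot be told apart from less RNA per cell.

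A microRNA is a short RNA that guides a silencing complex to messenger RNAs. Pairing depends mainly on its seed, the bases near its 5′ end, and the usual result is lower stability and translation of the messenger RNA. The miR-29 family is best known for holding down collagens and other matrix genes, and the 7 genes here belong to unrelated processes: release of fatty acids from lipoproteins (Lpl), control of the cytoskeleton (Cdc42), restraint of inflammatory signalling (Tnfaip3), gene repression and the nuclear lamina (Hdac4, Narf), and proteins of endosomes and lysosomes (Grn, Bace1).

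The mature miR-29 sequences are shown because all sites below are defined by them. They were taken from RefSeq (GRCm38.p6), and the capitals mark the seed, bases 2 to 8.
miR-29a-3p: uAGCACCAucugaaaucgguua
miR-29b-3p: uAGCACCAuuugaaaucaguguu
miR-29c-3p: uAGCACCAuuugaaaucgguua
The seed AGCACCA was the same in all members of the family. Over the shared length, miR-29c differed from miR-29a at 1 base and miR-29b at 4 bases. Mir29a lies at chr6:31062673-31062694 on the minus strand, and Mir29c at chr1:195037600-195037621 on the plus strand. The sequence of miR-29b is encoded beside each of them, at chr6:31063025-31063047 and at chr1:195037091-195037113.

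For each gene, matches to this seed in its longest 3′ UTR are shown because they separate the genes into those with and without a place where miR-29 could pair. Sequences are of the mRNA strand, 5′ to 3′, from GENCODE release M21 (GRCm38), which is not the build of the deposited values (mm9). The capitals mark the letters complementary to the seed, TGGTGCT, or to its bases 2 to 7 alone, GGTGCT, and an A that follows directly.
Lpl: gcagtatagatttgTGGTGCTAactt
Narf: acacagttttcatgTGGTGCTAtctt
Hdac4, first match: cctgcgtcctgcctTGGTGCTctct
Hdac4, second match: aacttgattaaaacTGGTGCTtaac
Cdc42: aacgtgtccccaccTGGTGCTctta
Bace1, full seed: ccttgccctcgcacTGGTGCTgctc
Bace1, shorter match: ttcactccaaccaaGGTGCTAaaag
Grn: ggaccttgtggccaGGTGCTcttc
Of the 7 genes, 5 held TGGTGCT, and 2 of these, Lpl and Narf, held it followed by A. Grn held only the 6 bases GGTGCT, and Tnfaip3 held none of these letters in a 3′ UTR of 1821 bases. Among the 12125 tested genes with an annotated 3′ UTR, 15.5% held TGGTGCT and 3.29% held TGGTGCTA, while 33.5% held GGTGCT. The share rises with length. Among genes with a 3′ UTR within 20% of the same length, TGGTGCT was found in 40.5% for Hdac4, 36.8% for Bace1, 26.7% for Narf, 24.0% for Lpl, 17.6% for Tnfaip3, 14.02% for Cdc42 and 4.64% for Grn. Because these genes were chosen as reported targets, the presence of matches is a description. A match is not a measured site.

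All the matches lie in the last exon of the annotated transcript. The Lpl match (chr8:68906770-68906777, plus strand, exon 10) begins at base 2264 of a 3′ UTR of 2428 bases, close to its end. The Narf match (chr11:121253031-121253038, plus strand, exon 11) begins at base 109 of 2934, and a GGTGCT lies before it at base 47. The matches of Hdac4 (minus strand, exon 27) lie at chr1:91933257-91933263 and chr1:91932946-91932952, at bases 84 and 395 of 4568, and 3 further GGTGCT follow. The Cdc42 match (chr4:137320520-137320526, minus strand, exon 6) begins at base 577 of 1407. In Bace1 (plus strand, exon 9) the full match lies at chr9:45862033-45862039 and the shorter one at chr9:45861295-45861301, at bases 1738 and 1000 of 4104. The Grn letters lie at chr11:102436714-102436719 (plus strand, exon 13), at base 242 of 337. Annotated isoforms differ for Cdc42, where 1 of 2 coding transcripts with a 3′ UTR held TGGTGCT, and for Bace1, where 2 of 3 did. Reads were summed per gene, so isoforms were not separated.

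Values are given in the deposited unit, reads per gene scaled so that the upper quartile of genes with reads is near 1000, and a gene without reads is listed at 1. Libraries held between 7696081 and 19062437 reads on genes, and 1 read was worth between 9.80 and 24.4, mostly more in shallower libraries. The median depth was 12011982 reads in saline and 9123458 in LNA29 libraries. A single read was worth a median of 12.9 in saline and 18.4 in LNA29 libraries, which bears most on genes of a few reads. Saline replicate 49 stood apart, with albumin at 35.7% of reads and the lowest sum of 6 hepatocyte markers. Most of that sum was albumin itself (2930398 of 3282077 reads). Cps1, another of the 6, was highest there among saline livers, at 6865 reads against 782 to 2677. Saline replicate 49 also had the steepest rise of values with transcript length (slope 0.44), and the slope was lowest in saline replicate 47 (-0.26). LNA29 replicate 48 got the smallest weight (0.43) when limma weighed the livers. Of 12 tested collagen and elastic fibre genes known as targets, 4 rose with LNA29 (limma adjusted p under 0.05), 10 had a log2 difference above 0 and the median was 0.75. Col5a2 (-0.0030) and Col15a1 (-0.64), named after their values were seen, were the exceptions. Sparc, a matrix glycoprotein gene, went from 2513 ± 238 to 7252 ± 1384 (SD, n = 6 each), and all 6 LNA29 livers lay above all saline livers for Sparc, Eln and Col3a1 (limma adjusted p = 4.62e-05, 0.0224 and 0.0438). For Col1a1 the log2 difference of 0.70 did not pass (limma adjusted p = 0.688). With any 1 liver left out, the limma adjusted p was at most 0.000360 for Sparc, 0.0787 for Eln and 0.128 for Col3a1, while the log2 differences stayed between 1.43 and 1.58, 1.73 and 2.14, and 1.36 and 1.65.

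None of the 7 reported targets passed the adjusted threshold in LNA29 livers. So few of all tested genes passed it that 0 calls is no result about 7 genes. With limma on log2(value + 1) and Benjamini-Hochberg adjustment across all 12486 genes whose mean reached 10, 0 of 7 passed an adjusted p of 0.05, where 0.16% of all tested genes did (0.0721% higher and 0.0881% lower in LNA29 livers). Without adjustment 1 of 7 passed, Lpl, which was higher, and 7.91% of tested genes passed, 1.95% in that direction and 5.97% in the other. The log2 difference was above 0 for 6 of the 7, against 38.6% of tested genes, and Tnfaip3 was the exception. Among the 6, Hdac4 held at most 7 reads in a liver, and the sign of Cdc42 (0.04) was not stable. The members' median log2 difference was 0.23, and that of all tested genes was -0.093. The counts are descriptions, since the genes were picked as targets. For no gene did all LNA29 livers lie above all saline livers (0.272% of tested genes) or below them (0.713%). The LNA29 mean was at least 1.5 times the saline mean for 1 of 7, again Lpl, and for 5.24% of tested genes. When the selection rule of the study was applied (means 1.5-fold apart and a one-tailed p, not adjusted, up to 0.05), 0 of 7 passed, against 1.25% of all genes in the upward and 2.82% in the downward direction.

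**Figure D1:**
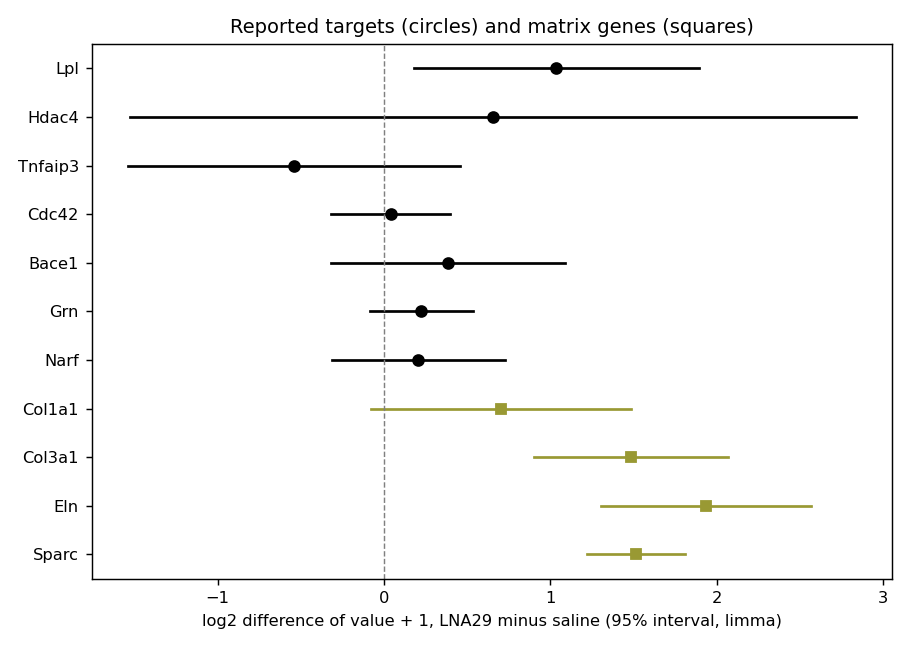
Log2 differences of LNA29 against saline livers for the 7 reported targets (circles) and 4 matrix genes (squares), with 95% intervals from limma over 6 livers a group. The interval lies above 0 for Lpl, Col3a1, Eln and Sparc and spans 0 for the others, and it is widest for Hdac4, from -1.53 to 2.84.

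Lpl encodes lipoprotein lipase, the enzyme that frees fatty acids from the triglycerides of circulating lipoproteins. In saline livers its value was between 318 and 670 with a median of 472 (20 to 67 reads). In LNA29 livers it was between 512 and 3925 with a median of 829 (21 to 208 reads). All 6 LNA29 livers lay above the saline median, but only 3 lay above every saline liver. These were replicate 48 at 3925, replicate 54 at 1466 and replicate 52 at 1132. The other LNA29 livers held 512, 518 and 525, within the saline range. The means were 493 ± 127 in saline and 1346 ± 1324 in LNA29 livers (SD, n = 6 each), a ratio of 2.73, while the ratio of the medians was 1.76. On the log2 scale Lpl was higher by 1.04 (SE 0.41, 95% interval 0.18 to 1.89), and 2.25% of tested genes had a larger difference. This difference did not pass adjustment (limma unadjusted p = 0.0206, adjusted p = 0.491), nor the two-sided exact permutation test over the 12 livers (p = 0.0628, where 0.00216 is the smallest that 6 against 6 allows). LNA29 replicate 48 carried much of the size. Without it the LNA29 mean was 831 ± 444 (n = 5), the ratio of means was 1.68 and the log2 difference was 0.64 (exact permutation p = 0.108). Without LNA29 replicate 44, 46 or 50, livers within the saline range, the exact permutation p was 0.0325, 0.0303 and 0.0325. With LNA29 replicate 52 or 54 or any 1 saline liver left out, it was between 0.0628 and 0.123.

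**Figure D2:**
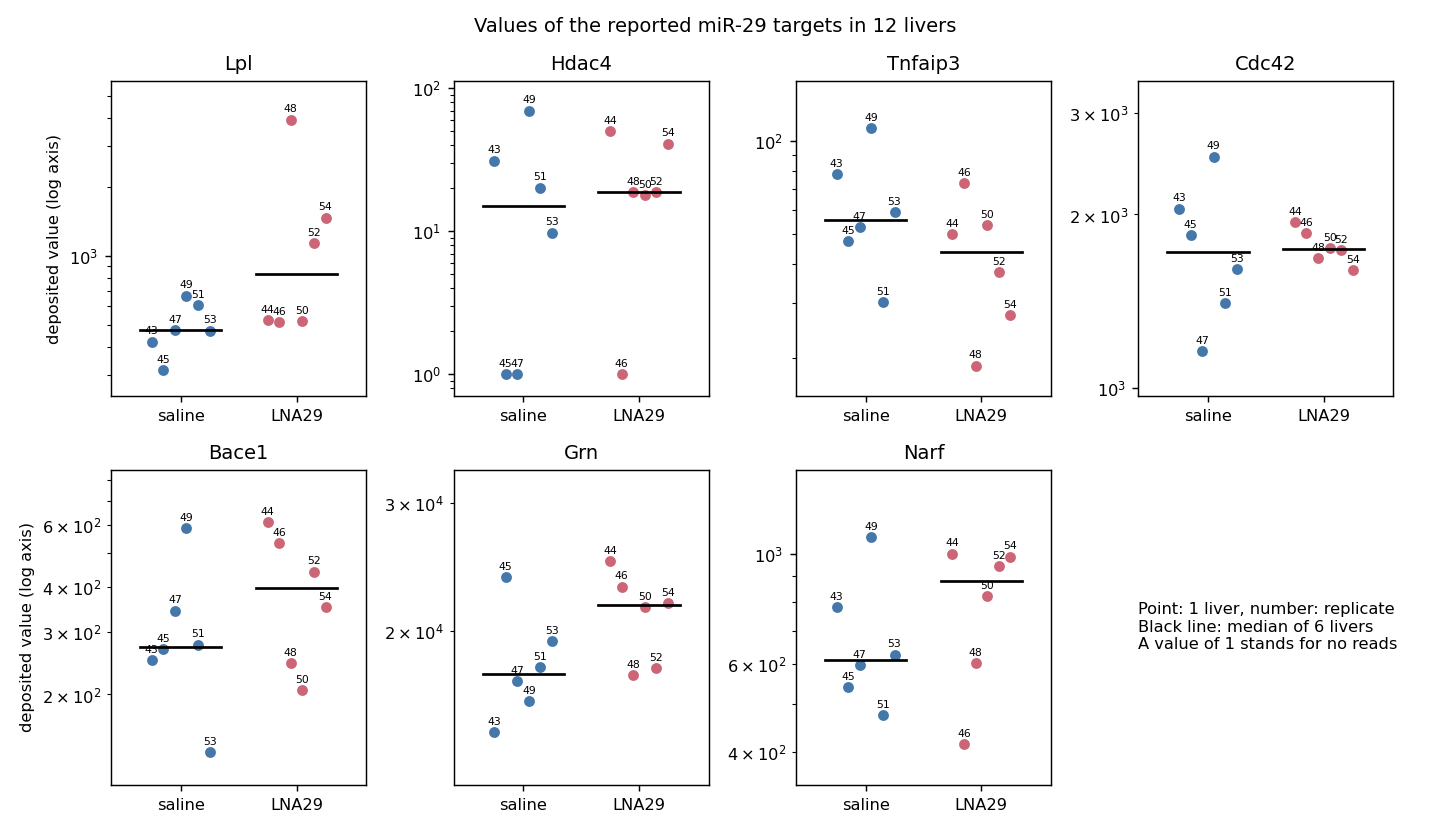
Deposited values of the 7 reported targets in 6 saline (blue) and 6 LNA29 (red) livers on log axes, with replicate numbers beside the points and the median as a black line. Lpl is above all saline livers in LNA29 replicates 48, 52 and 54, the groups overlap for every gene, and a value of 1 for Hdac4 stands for no reads.

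Adult hepatocytes carry little Lpl, and macrophages and adipocytes are among the cells that express it, so the markers of these cells are given beside it. The 6 adipocyte markers (Adipoq, Plin1, Cfd, Retn, Lep and Cidec) had sums from 172 to 1175 in saline and from 18.9 to 2073 in LNA29 livers. Most of these sums were Cidec, a lipid droplet gene that hepatocytes can also express: the highest sum of each group was 74 and 85 reads of Cidec alone. LNA29 replicates 44, 46, 48, 50 and 54 and saline replicates 43, 45, 49 and 53 all had no read of the other 5 markers. Saline replicate 51 had 1 read of Cfd. LNA29 replicate 48, the liver with the highest Lpl, had the lowest sum, 1 read of Cidec. LNA29 replicate 52, also high in Lpl, held 37 reads of Cfd, 8 of Plin1, 3 of Retn and 2 of Adipoq, and saline replicate 47, at an Lpl of 474, held 44 of Cfd, 3 of Retn and 3 of Adipoq. The 12 Kupffer cell and macrophage markers summed to between 14734 and 23474 in saline and between 13429 and 25986 in LNA29 livers, and 2 of the 12 had a log2 difference above 0. Their sum was 23925 in replicate 48, 25986 in replicate 54 and 14094 in replicate 52. Thus among the livers high in Lpl the macrophage sum was above all saline livers in 48 and 54 and below them in 52. The sum was also below all saline livers in LNA29 replicates 46 (14634) and 50 (13429), which were not high in Lpl. The 12 markers did not move together. In 54, Marco held 250 of the 1897 marker reads, against 22 to 62 reads in saline livers. In 48, C1qa, C1qb and C1qc held 242, 177 and 271 of 1268 reads. Vsig4 held 6 there (14 to 39 in saline) and Csf1r 57 (72 to 187 in saline), as reads not scaled for depth. Stellate cell markers summed to between 3382 and 4360 in saline and between 2642 and 4507 in LNA29 livers, with 2642 in replicate 48. Whether these cells or any other source of RNA take part in the Lpl values was not tested.

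**Figure D3:**
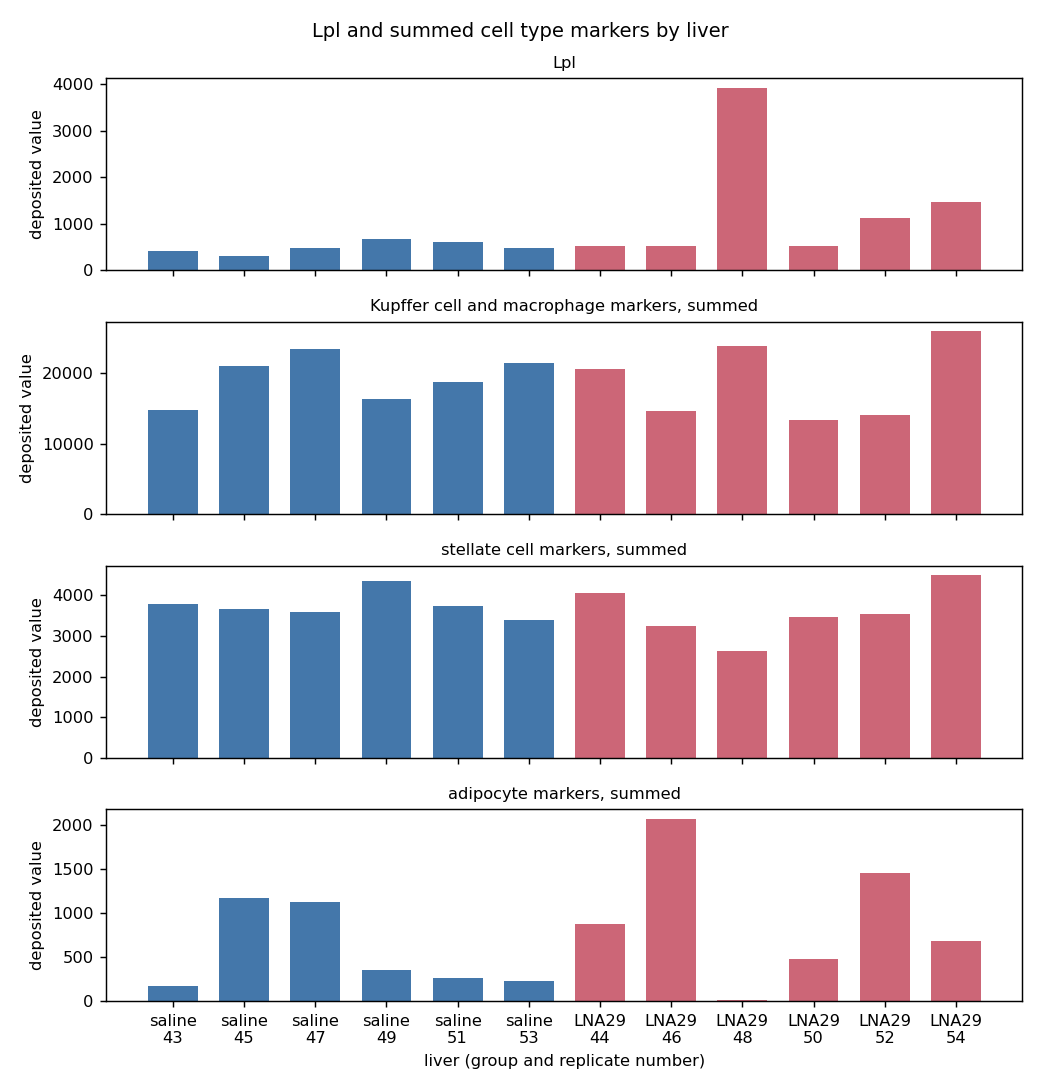
Lpl and the summed values of Kupffer cell and macrophage, stellate cell and adipocyte markers in each liver, as bars from 0 in the deposited unit (saline blue, LNA29 red). Replicate 48 has the highest Lpl (3925) and the lowest adipocyte sum (18.9, 1 read of Cidec), and replicate 54 has the highest macrophage sum (25986).

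Of 23 tested genes that control lipoprotein lipase or take up triglyceride-rich lipoproteins, 0 passed the adjusted threshold (0.16% of all tested genes did), 6 had a log2 difference above 0 (38.6% of all), and the median was -0.23 (-0.093 for all). These shares and that median also stand beside the lists below, where 0 calls is no result about a list of this size. The smallest p-value was that of Lrp1, a large endocytic receptor, which was at 16005 ± 2686 in saline and 11680 ± 1503 in LNA29 livers (log2 difference -0.45, limma adjusted p = 0.315), with 5 of 6 LNA29 livers below all saline livers.

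Cdc42 encodes a small GTPase that switches actin assembly and cell polarity on and off. It lay between 1158 and 2520 in saline livers with a median of 1725, and between 1603 and 1938 in LNA29 livers with a median of 1743. The LNA29 livers all fell inside the saline range. The means were 1763 ± 486 and 1760 ± 120 (SD, n = 6 each), and the log2 difference was 0.04 (SE 0.17, limma adjusted p = 0.979, exact permutation p = 0.818). The 95% interval, -0.32 to 0.40, corresponds to between 0.80 and 1.32 times the saline level. The spread among saline livers came with the transcript length slope of the libraries. Cdc42 was highest in saline replicate 49, which had the highest slope, and lowest in saline replicate 47, which had the lowest. Over the 12 livers its deviations from the group means followed the slope with Pearson r = 0.87. Other members also did, with r = 0.67 for Tnfaip3, 0.585 for Hdac4, 0.58 for Narf and 0.56 for Bace1. For Grn r was -0.0096 and for Lpl -0.25. Cdc42 and Grn, with such different r, have the shortest annotated transcripts of the members (2.11 and 2.34 kb). The source of the Cdc42 spread was not tested. The sign of the Cdc42 difference was not stable, and it was -0.072 without saline replicate 47 and -0.016 without saline replicate 51. Of the 38 tested genes of the CDC42 cycle and its effectors, 0 passed the adjusted threshold, 14 had a difference above 0, and the median was -0.11. The smallest p in this list was that of Cdc42bpb, a kinase bound by active CDC42, at 3046 ± 298 in saline and 2349 ± 700 in LNA29 livers (log2 difference -0.45, limma adjusted p = 0.649), and the difference was -0.21 without LNA29 replicate 48. The next was the exchange factor Arhgef6, with at most 5 reads in a liver (log2 difference -1.55, limma adjusted p = 0.710).

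Tnfaip3 encodes A20, a ubiquitin-editing enzyme that limits NF-kappaB signalling. It was the single member with a lower mean and median in LNA29 livers. Saline livers lay between 30.3 and 110 with a median of 55.7, and LNA29 livers between 18.9 and 73.2 with a median of 43.9. These values stood for 3 to 11 and 1 to 4 reads. The groups overlapped, with 2 of 6 LNA29 livers below all saline livers. Means were 62.9 ± 27.8 and 43.5 ± 19.6 (SD, n = 6 each). The log2 difference was -0.54 (SE 0.47, 95% interval -1.54 to 0.45, limma adjusted p = 0.848, exact permutation p = 0.182), and with these few reads the interval left both directions possible. It was -0.36 without saline replicate 49, -0.33 without LNA29 replicate 48 and -0.15 without both, a pair chosen after the data were seen. The 29 tested genes of the A20 complex and of NF-kappaB signalling held 0 past the adjusted threshold and 8 above 0, with a median of -0.10. Rnf31, the catalytic subunit of the linear ubiquitin ligase, was at 582 ± 132 in saline and 436 ± 61.6 in LNA29 livers (log2 difference -0.39, limma adjusted p = 0.688). Nfkbie, an inhibitor of NF-kappaB, was at 79.7 ± 35.7 and 48.5 ± 42.9 (log2 difference -0.93, limma adjusted p = 0.718).

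Hdac4 encodes a class IIa histone deacetylase that carries corepressors to transcription factors of the MEF2 family. It was close to the detection limit. The highest saline liver held 7 reads and the highest LNA29 liver 4, and 2 saline livers and 1 LNA29 liver held none. In the deposited unit saline livers ranged from 1 to 70 with a median of 15, and LNA29 livers from 1 to 50 with a median of 18.9. The value 18.9 stood for 1 read, in LNA29 replicates 48 and 52. The ranges overlapped almost fully. The means were 22.2 ± 26.2 and 24.6 ± 17.8 (SD, n = 6 each), and the log2 difference of 0.65 had a standard error of 1.04 (limma adjusted p = 0.929, exact permutation p = 0.565). The size of that difference rests on the 1 that stands for no reads. Leaving out single livers moved it between 0.15, without saline replicate 45 or 47, and 1.29, without LNA29 replicate 46. Among its partners 18 genes were tested, 0 passed the adjusted threshold, 7 were above 0 and the median was -0.18. The corepressor Ncor1 was at 1064 ± 526 in saline and 678 ± 206 in LNA29 livers (log2 difference -0.60, limma adjusted p = 0.624), and the difference was -0.39 without saline replicate 49.

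Narf encodes a nuclear protein that binds the tail of prelamin A, the precursor of lamin A. Its value was between 475 and 1080 in saline livers with a median of 612, and between 415 and 1000 in LNA29 livers with a median of 882. The LNA29 livers split, with 4 between 821 and 1000 and 2, replicates 46 and 48, at 415 and 604. Saline replicate 49, at 1080, was the highest of all. Means were 683 ± 220 and 795 ± 238 (SD, n = 6 each), and the log2 difference was 0.21 (SE 0.25, 95% interval -0.31 to 0.73, limma adjusted p = 0.897, exact permutation p = 0.457). With single livers left out it ran from 0.11, without saline replicate 51, to 0.38, without LNA29 replicate 46. With values beyond 1.5 SD of the group mean discarded, a step also used in the study, it was 0.52 (limma unadjusted p = 0.0119, adjusted p = 0.162). Discarding values far from their own group mean narrows the spread within groups, so these p-values are too small to be read as a test. The 17 tested genes of prelamin A processing and the lamina held 0 past the adjusted threshold and 9 above 0, with a median of 0.030. Lamin B2 (Lmnb2) was at 381 ± 85.9 in saline and 263 ± 75.9 in LNA29 livers (log2 difference -0.57, limma adjusted p = 0.631), and the difference was -0.35 without LNA29 replicate 48. Narfl, a relative of Narf, was at 658 ± 131 and 509 ± 61.2 (log2 difference -0.36, limma adjusted p = 0.661).

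Grn encodes progranulin, a secreted glycoprotein that also reaches lysosomes and supports their function. It was by far the most abundant member, with more than 900 reads in each liver, at between 14547 and 23746 in saline livers with a median of 17487. In LNA29 livers it was between 17415 and 24938 with a median of 21710. The groups overlapped through saline replicate 45 at 23746 and LNA29 replicates 48 and 52 at 17415 and 17811. Means were 18117 ± 3206 and 21102 ± 2953 (SD, n = 6 each), a ratio of 1.16. The log2 difference of 0.23 (SE 0.15, 95% interval -0.085 to 0.54) did not pass (limma adjusted p = 0.773, exact permutation p = 0.123). Its upper limit corresponds to 1.45 times the saline level. Without saline replicate 45, the highest saline liver, the difference was 0.31 and the exact permutation p was 0.0281. With any other single liver left out, the exact permutation p was between 0.0649 and 0.229. Discarding values beyond 1.5 SD, which narrows the spread within groups and so lowers p, also gave a difference of 0.31 (limma unadjusted p = 0.0208, adjusted p = 0.209). Of the 25 tested genes around progranulin and the lysosome, 0 passed the adjusted threshold, 8 were above 0 and the median was -0.100. Tfeb, a transcription factor of lysosomal genes, was at 441 ± 76.6 in saline and 641 ± 156 in LNA29 livers (log2 difference 0.52, limma adjusted p = 0.484), with 4 of 6 LNA29 livers above all saline livers. Lrp1, given above, had the smallest p in this list as well.

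Bace1 encodes the protease that makes the first cut of the amyloid precursor protein. It was at between 138 and 586 in saline livers with a median of 272, and at between 206 and 611 in LNA29 livers with a median of 397. The ranges lay on top of each other, and 1 LNA29 liver, replicate 44 at 611, was above all saline livers. RSEM gave Bace1 fractions of reads in most livers, between 11.5 and 58.6 in all, so part of its reads was shared out between gene models. Means were 310 ± 150 and 398 ± 160 (SD, n = 6 each), and the log2 difference was 0.38 (SE 0.33, 95% interval -0.32 to 1.09, limma adjusted p = 0.848, exact permutation p = 0.329). It was 0.18 without saline replicate 53, 0.24 without LNA29 replicate 44 and 0.59 without saline replicate 49. Leaving out saline replicate 49 and LNA29 replicate 48 together, chosen after the data were seen, gave 0.71 (limma unadjusted p = 0.0371, adjusted p = 0.433). Of the 25 tested genes of BACE1 sorting and amyloid precursor processing, 0 passed the adjusted threshold, 6 were above 0 and the median was -0.11. St6gal1, a sialyltransferase cut by BACE1, was at 1400 ± 278 in saline and 987 ± 205 in LNA29 livers (log2 difference -0.51, limma adjusted p = 0.422). Gga1, an adaptor that sorts BACE1 between endosomes and the Golgi, was at 2914 ± 239 and 2389 ± 314 (log2 difference -0.29, limma adjusted p = 0.581), with 4 of 6 LNA29 livers below all saline livers.

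The members differed widely in level. Per kilobase of the longest annotated transcript, the saline mean was 7742 for Grn, 836 for Cdc42, 156 for Narf, 120 for Lpl, 51.2 for Bace1, 14.2 for Tnfaip3 and 2.74 for Hdac4. The ranges over the 6 saline livers were apart between Grn and Cdc42 and between Cdc42 and Narf. All other neighbours overlapped, although within a liver the order of Lpl, Bace1, Tnfaip3 and Hdac4 held in 6 of 6 saline livers for each neighbouring pair, and Narf exceeded Lpl in 5 of 6. By the mean of all livers, before division by length, Grn stood at percentile 98.0 of tested genes, Tnfaip3 at percentile 18.5 and Hdac4 at percentile 8.61.

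The 3′ UTR matches can be set beside the differences of all tested genes, from the same livers. The 399 tested genes with TGGTGCTA had a median log2 difference of 0.024, and 53.1% were above 0. The 1477 genes with TGGTGCT and no A after it had a median of -0.061 with 42.9% above 0, and the 10249 without TGGTGCT a median of -0.10 with 37.2% above 0. The classes were not matched for 3′ UTR length, transcript length or level, and genes with a match tend to have longer 3′ UTRs. Whether the match itself accounts for the shift between classes was not tested. Lpl (1.04) and Narf (0.21), with the longest matches, lay above the median and the first also above the upper quartile (0.32) of their class. Hdac4 (0.65) and Bace1 (0.38) lay above the upper quartile of theirs (0.17), and Cdc42 (0.04) between its median and that quartile. Of the pair without a full match, Grn (0.23) lay above the upper quartile (0.11) and Tnfaip3 (-0.54) below the lower one (-0.35). Hdac4 and Tnfaip3 held at most 7 and 11 reads in a liver, so their places rest on few reads. The Hdac4 difference was 0.29 with a pseudocount of 10. Thus members lay on both sides of the median in the class with no full match and above it in the other classes.

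**Figure D4:**
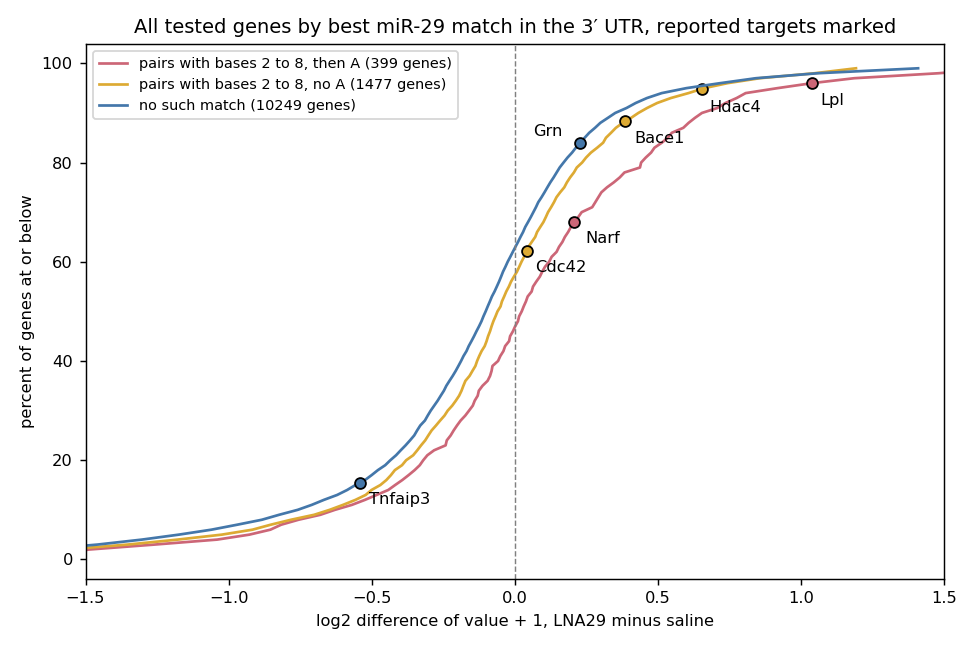
Cumulative percent of tested genes by log2 difference (LNA29 minus saline) for the 3 classes of best miR-29 match in the 3′ UTR, with the 7 reported targets marked on the curve of their class. The curve of the 399 genes with the longest match lies to the right (median 0.024) of that of the 10249 genes without TGGTGCT (median -0.10). The latter include genes with GGTGCT alone, and the classes were not matched for length or level. Of the targets only Tnfaip3 lies left of 0.

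Across the 12 livers, the genes most like each member were sought among 8990 tested genes whose mean reached 100, by the correlation of deviations from the group means. These are descriptions over 12 livers that share libraries and their length slopes. Cdc42 was most like Etnk1 (Pearson r = 0.977, Spearman rho = 0.979) and Trio (0.956 and 0.867). Bace1 was most like 5730455P16Rik (0.950 and 0.958) and Urb2 (0.897 and 0.839). Narf was most like Slc35a5 (0.913 and 0.916) and Aff4 (0.907 and 0.923), and Grn most like Ptpmt1 (0.907 and 0.909) and As3mt (0.875 and 0.895). For Lpl the nearest were Uroc1 (0.896 and 0.811) and P2rx4 (0.884 and 0.811). Hdac4 and Tnfaip3 had too few reads for such a search.

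The size and sign of the differences were compared over all other ways of processing that were run. Lpl stayed between 0.64 and 1.22, Grn between 0.17 and 0.31, Narf between 0.11 and 0.52 and Bace1 between 0.18 and 0.71. Tnfaip3 stayed below 0, between -0.73 and -0.15, and Hdac4 above 0, between 0.15 and 1.29. Cdc42 lay on both sides of 0. No member passed an adjusted p of 0.05 in limma in any of them.

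**Figure D5:**
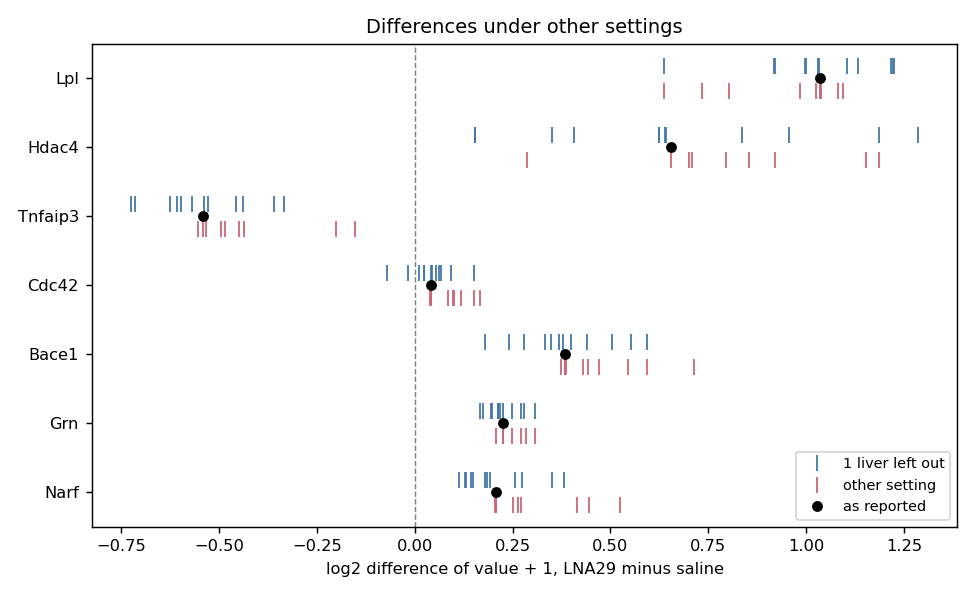
Log2 differences of the 7 reported targets as reported (circles), with each of the 12 livers left out in turn (blue ticks) and under other settings (red ticks). Ticks of Cdc42 fall on both sides of 0, and those of Lpl run from 0.64 to 1.22.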

How the data were processed

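Polyadenylated RNA of 12 livers was sequenced as single reads. The authors mapped them with MapSplice2, assigned them to genes with RSEM on mm9 (per the submitters' processing notes; versions and annotation are not given in the sources used here) and deposited signal values scaled near an upper quartile of 1000, with 1 for genes without reads. Their columns of group means, fold change and p-value were not used, nor were 3 unnamed columns of values. Between 92.2% and 93.9% of values were whole multiples of 1 read (within 0.02). Because this share was below 95%, count tests were not run. Depth limits genes of a few reads most.

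Groups follow the sample labels. Genes whose mean reached 10 (12486) were tested as log2(value + 1) with limma 3.58.1 (R 4.3.3, trended variance, Benjamini-Hochberg adjustment), and the named genes with two-sided exact permutation tests over the 924 divisions of 12 livers. For low genes, fold changes on this scale depend on the pseudocount and on the 1 listed for no reads, and can be smaller or larger than the ratio of means. Each liver is from a separate mouse per the study's methods, and replicate numbers are those in the labels. Alternatives were pseudocounts of 0.1 and 10, a minimum mean of 100 or no filter, a common median, TMM, array weights, discarding beyond 1.5 SD, a length covariate, the thresholds of the study, and leaving out livers. Seed matches were sought in 19608 genes, each by its longest 3′ UTR. The text names the 7 members, the 2 genes with the smallest limma p in each partner list (some of these are not reported here), 4 matrix genes and the 2 genes most like each member. Members and lists were chosen with earlier results of these data known. The limma fit and the TMM scaling were checked on simulated data. Python 3.11.15 with numpy 2.4.6, scipy 1.17.1, pandas 2.3.3 and matplotlib 3.10.9 was used for other steps.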

Additional observations from a re-analysis of the deposited data

Results flagged for a closer look

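Dixon's gap test at the 95% level was applied to 32 groups of the members and marker sums, where chance alone gives 1.6, and 3 livers stood out. Hdac4 in LNA29 replicate 46 was at 1 on the log2(value + 1) scale, which is no reads, and the other LNA29 livers were between 4.24 and 5.67. The hepatocyte marker sum in saline replicate 49, most of it albumin, was at 24.97, and the other saline livers were between 26.18 and 26.73. The adipocyte marker sum in LNA29 replicate 48, the liver highest in Lpl, was at 4.31, and the other LNA29 livers were between 8.92 and 11.02. That sum was 1 read of Cidec. The other 5 adipocyte markers had no reads there, nor in LNA29 replicates 44, 46, 50 and 54 or saline replicates 43, 45, 49 and 53.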

How the results depend on the processing

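No member was called under any alternative. The count of genes called over the whole table, 20 (9 higher, 11 lower), moved more. It was 10 (4 lower) after a shift to a common median. With values beyond 1.5 SD discarded, a step that narrows the spread within groups and so lowers p, it was 217 (73 higher, 144 lower). It was 105 (35 and 70) with the length covariate, 58 (18 and 40) with array weights and 883 by the thresholds of the study. With TMM 5 were lower. With saline replicate 49 and LNA29 replicate 48 both left out, chosen after seeing the data, 43 were called (32 lower). With 1 liver left out it was between 1 and 29 (1 to 9 higher, 0 to 20 lower): 1 without saline replicate 43 or LNA29 replicate 50, 52 or 54, 3 without saline replicate 51 and 29 without LNA29 replicate 48. The cause was not tested. Fewer livers were in the fits with livers left out.

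Cdc42 changed sign with 1 liver left out (-0.072 to 0.15). Of the list medians, that of the CDC42 genes was 0.011 without both livers, and that of the NARF genes -0.0078 at a mean of at least 100, -0.031 with the length covariate and between -0.033 and 0.050 with 1 liver left out (individually -0.0056, -0.033, -0.0076, -0.018, -0.030 and -0.023 where below 0). That of the NF-kappaB genes was between -0.16 and 0.0037. Lrp1 (-0.51, limma adjusted p = 0.0494) and Rnf31 (-0.61, limma adjusted p = 0.0401) passed only with values beyond 1.5 SD discarded. Because that step narrows the spread within groups, these 2 are not read as calls. Counting only matches followed by A left 2 of the 5 members with a full match. Hdac4 and Tnfaip3 give no value at a mean of at least 100. The planned edgeR and DESeq2 tests on recovered reads were not run, because fewer than 95% of values were whole reads. No paired analysis was possible because the groups share no replicate numbers.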
